A study of Caenorhabditis elegans with 17 samples.

Results

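Glutamine synthetase joins ammonia to glutamate at the cost of ATP and so makes glutamine. The enzyme clears ammonia, and its product donates nitrogen to the synthesis of nucleotides, amino sugars and asparagine. Worms carry several genes for this enzyme. The 5 genes described here, gln-1, gln-2, gln-3, gln-5 and gln-6, were selected by their gene symbols from the 26786 genes of a table of transcript levels, and all 5 were found and passed the filter on low values. The same 5 rows were also the ones that carried a glutamine synthetase orthology entry in that table. The family was picked from the genes of this study with earlier results of these data known, so every p-value below describes where a gene stood in the fit over all genes and is no independent support.

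RNA was sequenced from whole Caenorhabditis elegans that had been grown at 20 °C and collected as day 1 adults, 96 h after egg laying. They had been fed E. coli HT115 (DE3) with 1 of 4 RNAi treatments: both clones, ash-2 + hsf-1 (n = 4 libraries), ash-2 alone (n = 4), hsf-1 alone (n = 4), or the empty vector L4440 (n = 5). Every group, L4440 included, carried rmIs133 [unc-54p::Q40::YFP], a transgene that makes a YFP with a polyglutamine tract in body wall muscle, where the unc-54 promoter is active. The product of ash-2 is a subunit of complexes that methylate histone H3 at lysine 4, and that of hsf-1 activates heat shock genes. For both groups given ash-2 RNAi the parents had been raised on ash-2 RNAi as well, and the parents' treatment cannot be told apart from the animals' own. Levels are FPKM, fragments per kilobase of transcript, scaled to the library's mapped fragments, which allows levels of different genes to be set side by side. Changes are on the log2(FPKM + 0.5) scale with their standard error (SE), and a gene was called at a Benjamini-Hochberg adjusted p under 0.05 in one limma fit over 13084 genes. The words rose, fell, higher and lower as changes are used for called genes unless a p-value follows. The labels call the libraries biological replicates, and p-values measure the spread between these libraries only.

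The low FPKM values implied between 16.3 and 19.5 M fragments (M, mega) per library. The transcript of ash-2 stood at 3.92 to 11.6 FPKM under ash-2 + hsf-1 RNAi, 2.04 to 8.68 under ash-2 RNAi and 5.57 to 17.4 under hsf-1 RNAi, against 14.1 to 19.1 in L4440 animals. That of hsf-1 stood at 6.05 to 11.7 FPKM under ash-2 + hsf-1 RNAi, 16.3 to 41.5 under ash-2 RNAi and 7.33 to 15.1 under hsf-1 RNAi, against 26.5 to 33.8 in L4440 animals. The library labelled hsf-1 replicate 4 stood apart from its group with the low ash-2 level of 5.57 FPKM. It also had 10745 genes at an FPKM of at least 1, and 3 more libraries lay under 11000 such genes: ash-2 replicates 1 and 3 (9401 and 9817) and ash-2 + hsf-1 replicate 3 (10591). The library labelled ash-2 + hsf-1 replicate 4 stood apart in marker genes, with 889 summed FPKM for 8 hypodermal genes, against 2287 to 2697 in its group's other libraries. For the 5 genes, and for the other genes named under the single treatments, calls that were lost or gained without these libraries are given beside the result. Summed markers of intestine, body wall muscle, hypodermis, neurons and germline were at 407 FPKM or more in every library, while those of embryos reached at most 7.54 FPKM and those of glia at most 3.96 FPKM.

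gln-2 was the member with the largest change, and the lowest member in every group. The gene (K03H1.1) lies on chromosome III at 9943243 to 9944823 of WBcel235, on the minus strand, with 4 exons in its 1 annotated transcript, and no annotated gene overlaps it. Under ash-2 + hsf-1 RNAi its level was 4.70, 5.30, 4.57 and 2.23 FPKM in replicates 1 to 4, and under ash-2 RNAi it was 0.646, 1.45, 1.75 and 1.45 FPKM. Under hsf-1 RNAi it was 21.8, 19.04, 19.1 and 17.6 FPKM, against 14.3, 14.6, 9.28, 12.9 and 13.7 FPKM in L4440 animals. No group's range met another's, and the order from low to high was ash-2, ash-2 + hsf-1, L4440, hsf-1. The group means were 4.20 ± 1.35 FPKM with both clones, 1.33 ± 0.475 FPKM with ash-2 RNAi and 19.4 ± 1.75 FPKM with hsf-1 RNAi (SD, n = 4 each), against 12.9 ± 2.15 FPKM in L4440 animals (SD, n = 5).

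Under ash-2 RNAi gln-2 thus stood at 10.2% of its L4440 mean, and its log2 change of -2.91 ± 0.25 was called (limma, adjusted p = 1.15e-06). It was lower in all 4 ash-2 libraries, and 70 of the 13084 genes tested had a more negative change. The 4 ash-2 values rested on an implied 16 to 44 fragments per library, against 226 to 345 in L4440 libraries, so the depth leaves the ash-2 level less precise than the others. gln-2 fell in each of the 28 alternative settings as well, by between 2.21 and 3.25 on the log2 scale.

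With hsf-1 added to ash-2 RNAi, gln-2 was higher than with ash-2 RNAi alone, by 1.35 ± 0.27 on the log2 scale (limma, adjusted p = 0.00200), and it reached 32.5% of the L4440 mean. This call was lost in 1 of 28 alternatives, quantile normalization (0.72 ± 0.26, adjusted p = 0.0725), and the difference was 1.59 ± 0.24 without ash-2 + hsf-1 replicate 4. Set against hsf-1 RNAi alone, gln-2 fell with both clones by 2.13 ± 0.27 on the log2 scale (adjusted p = 0.000206), and 7 of 13084 genes had a more negative change there. Set against L4440 it fell by 1.55 ± 0.25 (adjusted p = 0.000597). Without ash-2 + hsf-1 replicate 4 these changes were -1.89 and -1.31, and both were still called.

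Under hsf-1 RNAi alone gln-2 stood at 149.9% of the L4440 mean, with a log2 change of 0.58 ± 0.25 that was not called (limma, adjusted p = 0.182, 95% interval 0.05 to 1.11). All 4 hsf-1 libraries lay above all 5 L4440 libraries, and the exact permutation test on this gene alone gave its smallest possible two-sided p, 0.00794, unadjusted. Without the library labelled hsf-1 replicate 4 the change was 0.62 ± 0.27 (adjusted p = 0.148). The interaction of both clones, which asks whether the double treatment departs from the sum of the single changes, was 0.77 ± 0.37 for gln-2 and was not called (adjusted p = 0.698).

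**Figure D1:**
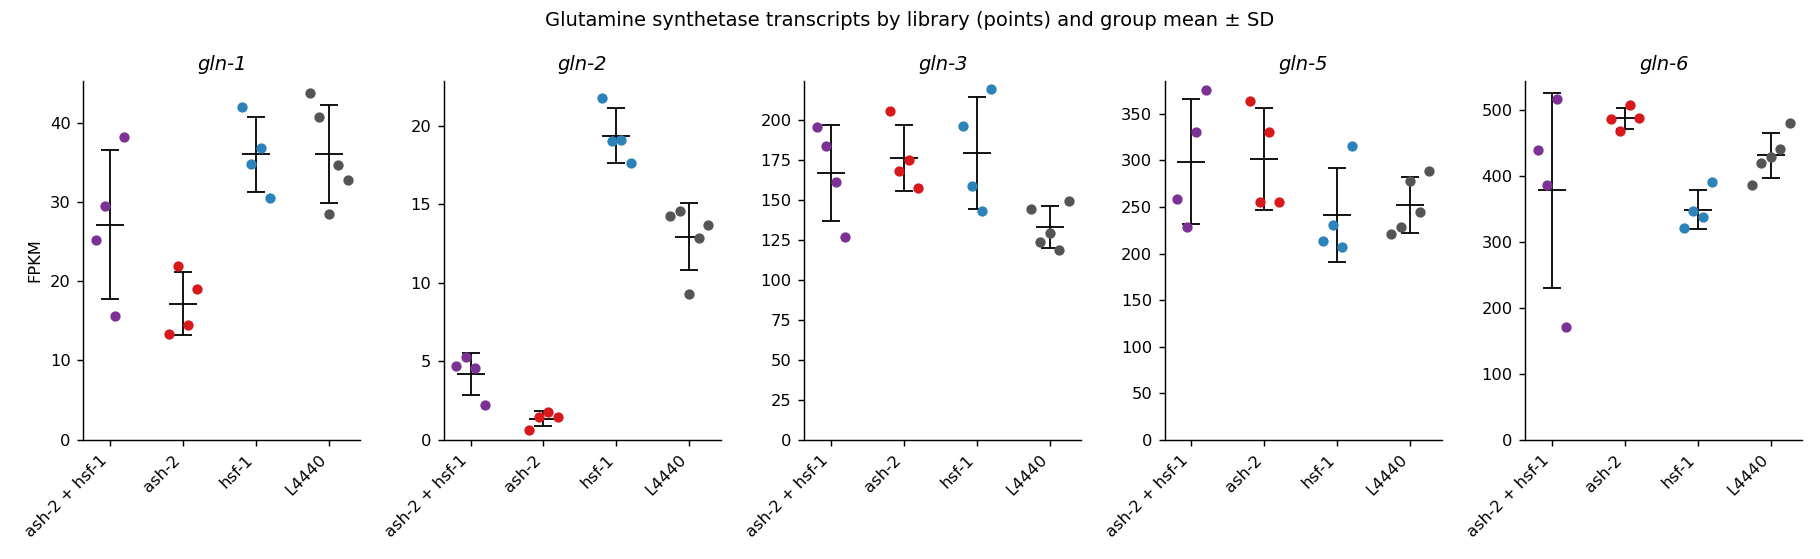
FPKM of each glutamine synthetase gene (y axes, each from 0) in the 17 libraries (points), by RNAi group, with group mean and SD (bars, n = 4, 4, 4 and 5). For gln-2 the 4 groups do not overlap, and the 4 ash-2 libraries sit between 0.646 and 1.75 FPKM.

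gln-1 was the other member that fell under ash-2 RNAi. The gene (C45B2.5) lies on chromosome X at 6058255 to 6060242, on the plus strand, with 7 exons. Its level was 25.2, 29.5, 15.7 and 38.2 FPKM in replicates 1 to 4 of ash-2 + hsf-1 RNAi and 13.4, 21.9, 14.4 and 19.004 FPKM in those of ash-2 RNAi. It was 42.0, 34.8, 36.9 and 30.6 FPKM under hsf-1 RNAi, against 43.8, 40.7, 28.4, 34.6 and 32.8 FPKM in L4440 animals. The ash-2 libraries all lay below the hsf-1 and L4440 libraries, which covered nearly the same range, while those with both clones spread over the ranges of the other groups. Means were 27.1 ± 9.39 FPKM with both clones, 17.2 ± 3.97 FPKM with ash-2 RNAi and 36.04 ± 4.74 FPKM with hsf-1 RNAi (SD, n = 4 each), against 36.1 ± 6.16 FPKM in L4440 animals (SD, n = 5).

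The log2 change of gln-1 under ash-2 RNAi was -1.06 ± 0.23 (limma, adjusted p = 0.00303), lower in 4 of 4 libraries. Over the 28 alternatives it stayed called and lay between -1.18 and -0.63. It was -0.79 (adjusted p = 0.0139) without the 4 libraries of few detected genes and -0.63 (adjusted p = 0.0357) with the number of detected genes as a covariate, so its log2 size moved by over 1.5 times with that number. Under hsf-1 RNAi its change was 0.01 ± 0.23 with a 95% interval of -0.48 to 0.49. Against ash-2 RNAi alone, the difference of gln-1 with both clones was 0.60 ± 0.24 and was not called (adjusted p = 0.109). Without ash-2 + hsf-1 replicate 3 that difference was 0.84 ± 0.22 and was called (adjusted p = 0.0145). In the order of gln-1 levels, ash-2, ash-2 + hsf-1, hsf-1 and L4440, no neighbouring pair was called in the fit over all libraries, and of these pairs the first had an unadjusted limma p of 0.0243 and a 95% interval of 0.09 to 1.12.

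gln-3 had its lowest level in L4440 animals, and no change of it was called in the fit over all libraries. The gene (Y105C5B.28) lies on chromosome IV at 16167781 to 16170678, on the minus strand, with 3 annotated transcripts of 2 to 5 exons. Its level was 196, 184, 161 and 127 FPKM with both clones, 205.5, 168, 175 and 157 FPKM under ash-2 RNAi and 197, 159, 143 and 219 FPKM under hsf-1 RNAi, against 144, 124, 129, 118.99 and 149 FPKM in L4440 animals. All ash-2 libraries lay above all L4440 libraries, whereas the ranges under hsf-1 RNAi and with both clones overlapped that of L4440.

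Group means of gln-3 were 167 ± 30.3 FPKM with both clones, 176 ± 20.7 FPKM with ash-2 RNAi and 179 ± 34.8 FPKM with hsf-1 RNAi (SD, n = 4 each), against 133 ± 13.1 FPKM in L4440 animals (SD, n = 5). The log2 change was 0.40 ± 0.15 under ash-2 RNAi (limma, adjusted p = 0.0661, 95% interval 0.09 to 0.72) and 0.42 ± 0.15 under hsf-1 RNAi (adjusted p = 0.0905). Both stood close to the threshold, and with only the ash-2 and L4440 libraries in the fit the first was called (adjusted p = 0.0144). Without ash-2 + hsf-1 replicate 4, whose own value enters neither change but enters the shared spread, they were called at adjusted p = 0.0309 and 0.0406. Without the library labelled hsf-1 replicate 4 the change under ash-2 RNAi was called (adjusted p = 0.0436), while that under hsf-1 RNAi was 0.31 ± 0.15 (adjusted p = 0.193).

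gln-6 was the most abundant member by group mean in all 4 groups. The gene (C28D4.3) lies on chromosome IV at 9739261 to 9740901, on the minus strand, with 4 exons. Its end overlaps C28D4.10 on the opposite strand (9738494 to 9739312), over positions 9739261 to 9739312. The libraries were stranded per the labels. Whether fragments were counted by strand is not given in the sources used here, so some in that stretch may belong to the neighbour. Its level was 439, 387, 516 and 171 FPKM with both clones, 487, 468, 507 and 488 FPKM under ash-2 RNAi and 321, 346, 337 and 391 FPKM under hsf-1 RNAi, against 387, 420, 429, 440.3 and 479.7 FPKM in L4440 animals. One library decided the spread of the double treatment: ash-2 + hsf-1 replicate 4 was the lowest of all 17.

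Means of gln-6 were 378 ± 148 FPKM with both clones, 487 ± 16.2 FPKM with ash-2 RNAi and 349 ± 29.7 FPKM with hsf-1 RNAi (SD, n = 4 each), against 431 ± 33.7 FPKM in L4440 animals (SD, n = 5). No change of it was called. It was 0.18 ± 0.22 on the log2 scale under ash-2 RNAi (limma, adjusted p = 0.575), -0.31 ± 0.22 under hsf-1 RNAi (adjusted p = 0.503) and -0.48 ± 0.23 with both clones against ash-2 RNAi alone (adjusted p = 0.188). Without ash-2 + hsf-1 replicate 4 the shared spread of gln-6 shrank and the same -0.31 under hsf-1 RNAi had an SE of 0.09 and was called (adjusted p = 0.0356), as it was with only the hsf-1 and L4440 libraries in the fit (adjusted p = 0.0482). Both clones against hsf-1 RNAi was 0.01 ± 0.23 with that library and 0.35 ± 0.10 without it, then called (adjusted p = 0.0424). Without ash-2 + hsf-1 replicate 3, the difference from ash-2 RNAi was -0.66 ± 0.23 and called (adjusted p = 0.0490).

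gln-5, next to gln-6 in abundance by group mean, had overlapping ranges in every comparison and no called change. The gene (F26D10.10) lies on chromosome IV at 17272231 to 17273652, on the minus strand, with 4 exons. Its level was 258, 229, 331 and 376 FPKM with both clones, 364, 255, 331 and 256 FPKM under ash-2 RNAi and 213, 231, 207 and 316 FPKM under hsf-1 RNAi, against 221, 228, 278, 245 and 289 FPKM in L4440 animals. Means were 299 ± 67.1 FPKM with both clones, 301 ± 54.6 FPKM with ash-2 RNAi and 242 ± 50.7 FPKM with hsf-1 RNAi (SD, n = 4 each), against 252 ± 30.0 FPKM in L4440 animals (SD, n = 5). The 95% interval of its log2 change was -0.11 to 0.60 under ash-2 RNAi and -0.43 to 0.28 under hsf-1 RNAi. With the number of detected genes as a covariate the ash-2 change was -0.17, against 0.25 without it.

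**Figure D2:**
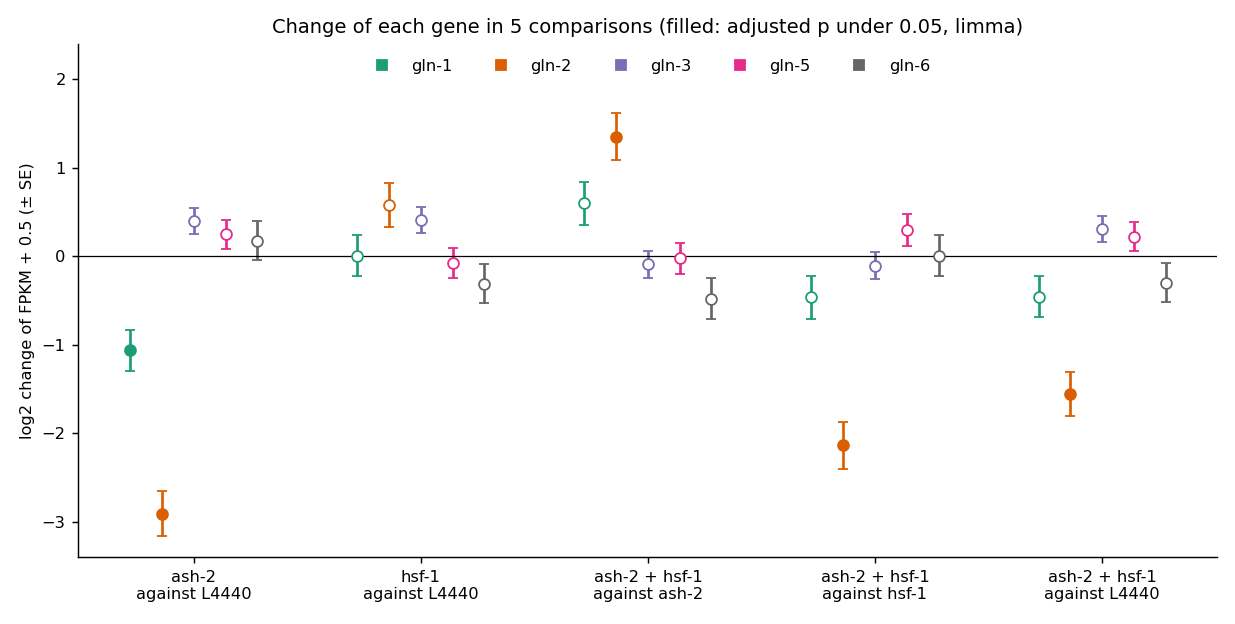
Log2 change of FPKM + 0.5 (y axis, ± SE from limma) of each gene in 5 comparisons (x axis), colour by gene, filled where the adjusted p was under 0.05. gln-2 is filled in 4 comparisons, from -2.91 under ash-2 RNAi to 1.35 with both clones against ash-2 RNAi, and gln-1 in 1.

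Counted over the family, 2 of 5 genes were called under ash-2 RNAi against L4440, where 19.6% of all genes tested were called, and both were lower, the direction of 15.5% of all genes tested. At an unadjusted limma p under 0.05 it was 3 of 5, with gln-3 added, beside 33.4% of all genes. The ranges of 3 of 5 members (gln-1 and gln-2 lower, gln-3 higher) did not overlap those of L4440, as for 27.3% of genes. Under hsf-1 RNAi limma called 0 of 5 members, against 10.6% of all genes, while 2 had an unadjusted limma p under 0.05, beside 21.8% of all genes, and 3 had one by the exact permutation test, beside 28.0%. The ranges of 1 of 5, gln-2, did not overlap there, as for 17.4% of genes. With 5 members these counts are a description and not a test of the family.

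For both clones against ash-2 RNAi, 1 of 5 members was higher, as were 12.0% of all genes tested, and its ranges were the only ones not to overlap among the 5 (18.1% of all genes). Against hsf-1 RNAi 1 of 5 was lower, beside 8.42% of all genes, and 1 of 5 did not overlap, beside 11.1%. Against L4440 1 of 5 was lower, beside 5.40%, and 1 of 5 did not overlap, beside 12.6%. Each of these was gln-2. The interaction was called by limma for 0 of 5 members and for 0.107% of all genes (14 genes), and 1 member, gln-3, had an unadjusted p under 0.05 (0.0312), beside 6.37% of all genes. These comparisons share libraries, so the calls are not separate evidence.

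Levels of all genes tested shifted between libraries, which bears on the changes under ash-2 RNAi. The median log2 change of all 13084 genes was -0.32 under ash-2 RNAi and -0.03 under hsf-1 RNAi. Scaling by median of ratios brought the ash-2 median to -0.03, and the changes there were -0.73 for gln-1, -2.64 for gln-2 and 0.74 for gln-3. Under quantile normalization the median was 0.06 and the same genes had changes of -0.81, -2.21 and 0.30. gln-1 and gln-2 were called under both scalings, and gln-3 under neither.

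The summed level of the 5 genes could hardly follow gln-2, which was at most 2.74% of the sum in any library. It was 875 ± 133 FPKM with both clones, 984 ± 77.7 FPKM with ash-2 RNAi and 825 ± 102 FPKM with hsf-1 RNAi (SD, n = 4 each), against 865 ± 60.3 FPKM in L4440 animals (SD, n = 5). Library ranges overlapped between all 4 groups. With median-of-ratios scaling the ash-2 mean was 1211 FPKM in place of 984 FPKM, while the L4440 mean was lower than 865 FPKM. The gap between these groups was thus wider there, so the sums depend on the scaling. The overlap of ranges is for the FPKM without that scaling. gln-2 made up 0.475%, 0.137% and 2.38% of the sum under ash-2 + hsf-1, ash-2 and hsf-1 RNAi, against 1.50% in L4440 animals. gln-6 made up 42.0%, 49.7% and 42.4% in the same 3 treated groups, against 49.8% in L4440 animals, and gln-5 made up 35.1%, 30.5% and 29.1%, against 29.1%. Without ash-2 + hsf-1 replicate 4, where gln-5 had 52.6% and gln-6 23.97% of the sum, both clones gave 48.0% for gln-6 and 29.2% for gln-5. gln-3 had 19.2%, 17.9% and 21.7% of the sum, against 15.4% in L4440 animals. The 2 genes that fell under ash-2 RNAi were therefore the least abundant members, and most of the family's messenger RNA came from gln-6, gln-5 and gln-3 in every library.

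**Figure D3:**
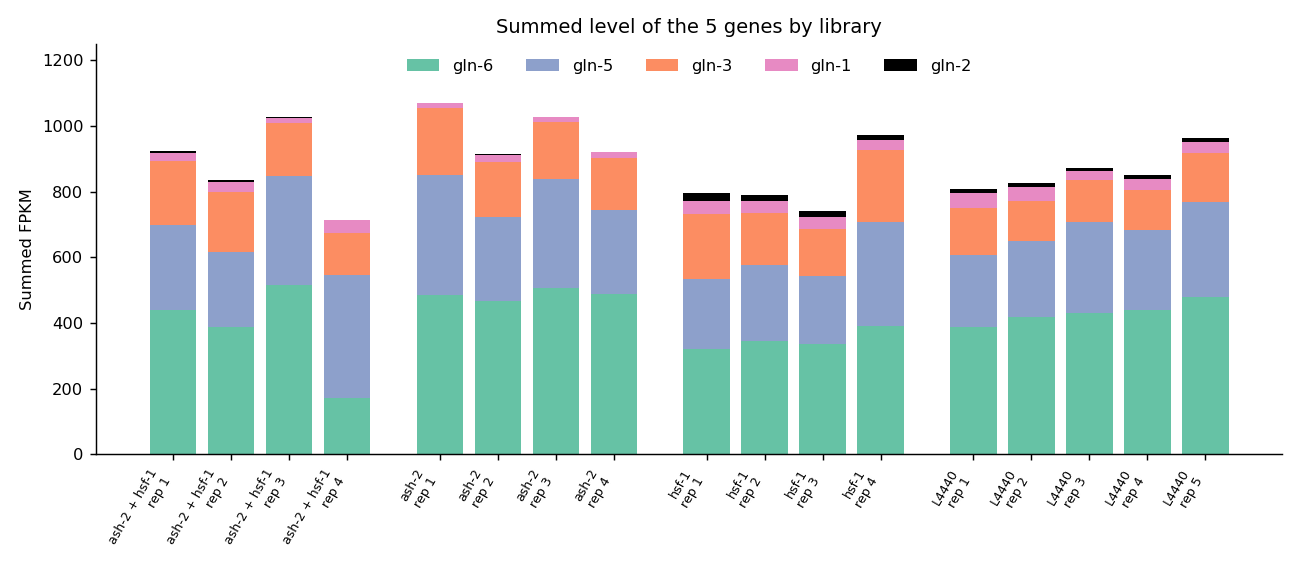
Summed FPKM of the 5 glutamine synthetase genes (y axis) in each of the 17 libraries (x axis, by group), stacked by gene. The sums lie between 715 and 1070 FPKM, and gln-2 (black) is at most 2.74% of any of them.

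In whole-animal RNA, fewer cells of a type and less RNA per cell cannot be told apart, and gln-2 moved with markers of sperm. Of 8 sperm genes tested (a set that includes major sperm proteins and the sperm phosphatases gsp-3 and gsp-4), 8 were lower under ash-2 RNAi (median log2 change -2.91), 0 were called by limma under hsf-1 RNAi (2 higher at an unadjusted p under 0.05, median 0.67), and with both clones 7 were higher than under ash-2 RNAi and 3 lower than in L4440 animals. One more, spe-9, a sperm surface protein needed for fertilization, was too low to be tested. The 9 genes summed to 190 to 452 FPKM with both clones, 33.1 to 100.4 FPKM under ash-2 RNAi and 561 to 987 FPKM under hsf-1 RNAi, against 407 to 434 FPKM in L4440 animals. Over the 17 libraries gln-2 and this sum had a Pearson r of 0.90 on the log2 scale, a description of points that share treatment and library.

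The parallel broke in the libraries that stood apart, but not only there. In ash-2 + hsf-1 replicate 4 the sperm sum was 108% of the L4440 mean while gln-2 was at 17.3%, its lowest of that group. In the library labelled hsf-1 replicate 4 the sperm sum was 236% and gln-2 at 136%, again the lowest of its group. Per 100 FPKM of sperm genes, gln-2 had 1.85 ± 0.965 FPKM with both clones, 2.28 ± 0.543 FPKM with ash-2 RNAi and 2.95 ± 0.778 FPKM with hsf-1 RNAi (SD, n = 4 each), against 3.095 ± 0.506 FPKM in L4440 animals (SD, n = 5). Single libraries weighed on several of these means. It was 0.494 FPKM in ash-2 + hsf-1 replicate 4, against 2.05 to 2.78 FPKM in that group's other libraries. In the library labelled hsf-1 replicate 4 it was 1.78 FPKM, against 3.28 to 3.40 FPKM in its group's others. The part of sperm content in the change of gln-2 was not tested.

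Other tissue markers moved too. Of all genes tested, 4.17% were higher and 15.5% lower under ash-2 RNAi, and 7.72% were higher and 2.91% lower under hsf-1 RNAi. Of 8 hypodermal genes, 5 were lower under ash-2 RNAi (median -1.64) and 4 were higher under hsf-1 RNAi (median 1.13), but their sum, led by the most abundant collagens, was 1512 to 1917 FPKM under ash-2 RNAi, against 1579 to 1928 FPKM in L4440 animals. With both clones 5 hypodermal genes were higher than under ash-2 RNAi (median 1.66), beside 12.0% of all genes. Another 4 calls were lower than under hsf-1 RNAi (median -1.08), beside 8.42%, and against L4440 limma called 0. Of the marker sums, only that of sperm was correlated with gln-2. Of 9 intestinal genes, 2 were lower under ash-2 RNAi, and 2 were higher and 3 lower under hsf-1 RNAi. At an unadjusted limma p under 0.05 it was 5 lower under ash-2 RNAi, and 2 higher and 4 lower under hsf-1 RNAi. Of all genes, 33.4% and 21.8% passed there in either direction. The intestinal sum was 1594 to 2282 FPKM with both clones, 2606 to 3400 under ash-2 RNAi and 2540.5 to 3412 under hsf-1 RNAi. In L4440 animals it was 3924 to 5331 FPKM, above the range of each treated group. Of 8 body wall muscle genes limma called 0 in either single treatment, and at an unadjusted p under 0.05 it was 0 under ash-2 RNAi and 2 higher under hsf-1 RNAi. Of 10 germline and oocyte genes, 1 was higher under ash-2 RNAi and limma called 0 under hsf-1 RNAi (0 unadjusted), and of 9 neuronal genes 1 and 3 were higher. Their part in the changes of gln-1 and gln-2 was not tested.

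**Figure D4:**
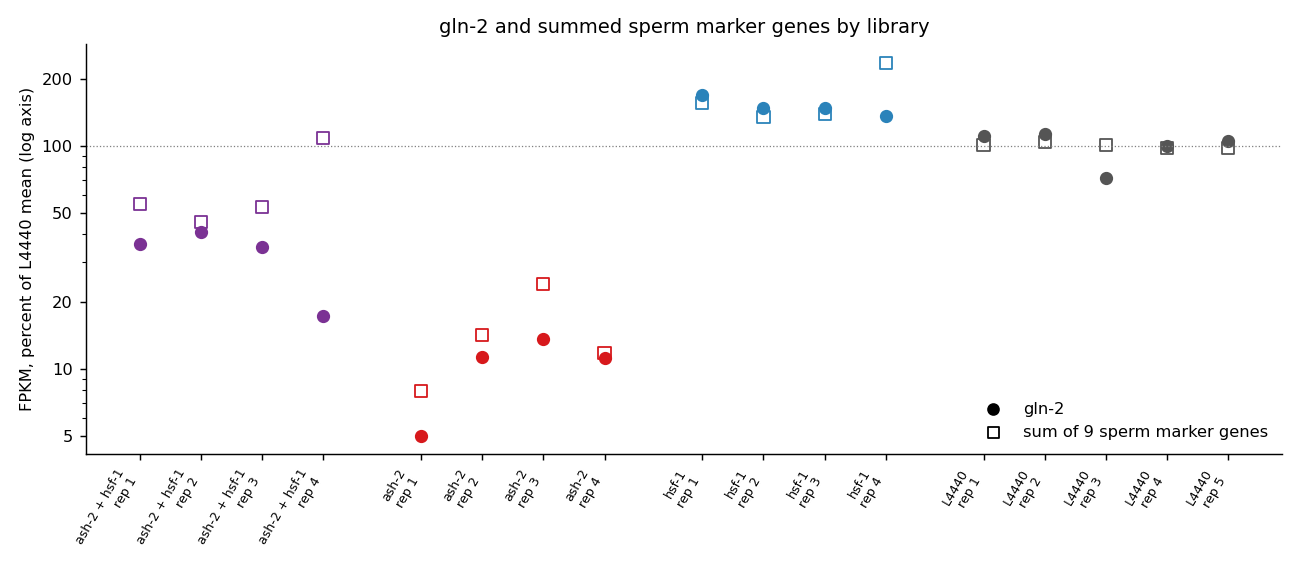
Level of gln-2 (filled circles) and sum of 9 sperm marker genes (open squares), each as a percent of its L4440 mean (y axis, log scale), in the 17 libraries (x axis, by group). Both are lowest in the 4 ash-2 libraries, and they part in ash-2 + hsf-1 replicate 4, at 17.3% and 108%.

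The members were little alike in how they varied over libraries. On the log2 scale gln-1 and gln-2 had a Pearson r of 0.79 over the 17 libraries, and the 9 other pairs had r between -0.61 and 0.24. Without the 4 libraries of few detected genes, an alternative chosen after seeing the data, these were 0.76 and -0.55 to 0.16, and the pair gln-3 and gln-5 turned from 0.17 to -0.32. These values are descriptions, since libraries share treatment and the number of detected genes. Among 4367 genes with a symbol and a mean level of at least 10 FPKM, those most like gln-2 were nsph-2 (r = 0.99), nsph-3.1 (0.98) and nas-9 (0.98), the last an astacin-type zinc metalloproteinase. nsph-2 averaged 6.73 FPKM with both clones, 2.17 FPKM with ash-2 RNAi and 20.9 FPKM with hsf-1 RNAi, against 13.4 FPKM in L4440 animals, the same order of groups as gln-2.

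For gln-1 the most alike were ttr-59 (r = 0.96), of the transthyretin-related family, ugt-19 (0.94), a UDP-glucuronosyltransferase, and pho-6 (0.94), an acid phosphatase. Without the 4 libraries of few detected genes the r of ugt-19 was 0.84 and those of ttr-59 and pho-6 were 0.94 and 0.96. For gln-3 they were unc-78 (0.92), which helps to disassemble actin filaments in muscle, and the collagens col-80 (0.89) and col-20 (0.87). unc-78 averaged 22.8 FPKM with both clones, 25.1 FPKM with ash-2 RNAi and 23.8 FPKM with hsf-1 RNAi, against 15.5 FPKM in L4440 animals, lowest in the last group like gln-3.

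For gln-5 they were slc-25A46, nduf-11 and crn-4 (r = 0.96 each), a mitochondrial carrier, a subunit of respiratory complex I and a nuclease of apoptosis. For gln-6 they included acs-19 and cgh-1 (0.98 each), an acetyl-CoA synthetase and a germline RNA helicase. cgh-1 averaged 933 ± 311 FPKM with both clones and 1137 ± 45.3 FPKM with ash-2 RNAi, and like gln-6 it had its largest SD in the double treatment.

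Around the synthetases, 44 genes of glutamate and glutamine metabolism were listed by role, of which 42 were in the table and 38 were tested. Under ash-2 RNAi 1 was higher and 6 were lower, with a median log2 change of -0.19. Of all genes tested 4.17% were higher and 15.5% lower there, with a median of -0.32, so the share of the list that was called lay near that of all genes (19.6%). Under hsf-1 RNAi 2 were higher and 4 lower, with a median of -0.15, while of all genes tested 7.72% were higher and 2.91% lower, with a median of -0.03. Without the 4 libraries of few detected genes the ash-2 calls were 0 higher and 2 lower and the hsf-1 calls were 4 higher and 4 lower. Over all genes this setting gave 2029 calls under ash-2 RNAi, against 2570, and 2867 under hsf-1 RNAi, against 1391. Of the ash-2 group it keeps replicates 2 and 4 only. Fewer libraries and the removed values cannot be told apart there, or where the same setting is given below.

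The glutaminases glna-1, glna-2 and glna-3, which split glutamine into glutamate and ammonia, and the glutamate dehydrogenase gdh-1, which converts glutamate and 2-oxoglutarate into each other, gave 0 calls of 4 by limma in either single treatment, while 3 under ash-2 RNAi (33.4% of all genes) and 0 under hsf-1 RNAi (21.8% of all genes) had an unadjusted p under 0.05. Their log2 changes under ash-2 RNAi were -0.48, -1.69, -1.24 and -0.19 (adjusted p = 0.0618, 0.0554, 0.0659 and 0.451). Of the 4 genes on other routes to glutamate, limma called 0 in either single treatment, and 1 was lower under ash-2 RNAi at an unadjusted p under 0.05.

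Among 6 transaminases tested, bcat-1, for branched-chain amino acids, was lower under ash-2 RNAi (-0.79, adjusted p = 0.0127). The tyrosine aminotransferase tatn-1 was lower under ash-2 RNAi (-0.74, adjusted p = 0.0308) and under hsf-1 RNAi (-0.98, adjusted p = 0.0103). The aspartate aminotransferase got-1.2 was higher under hsf-1 RNAi (0.38, adjusted p = 0.0372). The ash-2 call of bcat-1 was lost without ash-2 replicate 1 (adjusted p = 0.0590), without the 4 libraries of few detected genes (-0.41, adjusted p = 0.116) and with the number of detected genes as a covariate (-0.26, adjusted p = 0.179). The ash-2 call of tatn-1 was lost without ash-2 replicate 1 or 3 or L4440 replicate 1, 2, 4 or 5 (adjusted p up to 0.136), without the 4 libraries (-0.35, adjusted p = 0.364), with the covariate (-0.40, adjusted p = 0.206) and with median-of-ratios scaling (-0.41, adjusted p = 0.0984), while tatn-1 under hsf-1 RNAi was called in 28 of 28 alternatives. The call of got-1.2 was lost without hsf-1 replicate 1, 3 or 4 or any one L4440 library (adjusted p up to 0.0996), without the 4 libraries (0.31, adjusted p = 0.0537), under median-of-ratios scaling (0.39, adjusted p = 0.419), under quantile normalization (0.35, adjusted p = 0.0710) and with plain eBayes (adjusted p = 0.0845).

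Of 10 enzymes that take nitrogen from glutamine, the asparagine synthetases were called in opposite directions under ash-2 RNAi, which depends on the scaling and on single libraries. asns-1 was lower under ash-2 RNAi (-0.69, adjusted p = 0.0353) and higher under hsf-1 RNAi (1.07, adjusted p = 0.00363, called in 28 of 28 alternatives). asns-2 was higher under ash-2 RNAi (1.12, adjusted p = 0.0315), and its change under hsf-1 RNAi was -0.13 (adjusted p = 0.855). Under ash-2 RNAi the call of asns-1 was lost without ash-2 replicate 1 or 3 or any one L4440 library (adjusted p up to 0.136), and that of asns-2 without ash-2 replicate 1 or 2 or L4440 replicate 2, 3 or 4 (up to 0.118). The ash-2 change of asns-1 was -0.01 under quantile normalization (adjusted p = 0.979), -0.42 with median-of-ratios scaling (adjusted p = 0.157), -0.43 with the covariate (adjusted p = 0.134) and -0.38 without the 4 libraries (adjusted p = 0.329). That of asns-2 was 1.04 without the 4 libraries (adjusted p = 0.135) and 1.12 with no filter on low values (adjusted p = 0.0531). ppat-1, which starts purine synthesis, was lower under hsf-1 RNAi (-1.32, adjusted p = 0.00941), and its change under ash-2 RNAi was -0.61 (adjusted p = 0.171).

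Of 3 tested transporters of ammonium, the substrate of the synthetases, 2 were lower in each single treatment. rhr-1, a Rh-type transporter, changed by -0.60 under ash-2 RNAi (adjusted p = 0.0111) and by -0.82 under hsf-1 RNAi (adjusted p = 0.00240). Its ash-2 call was lost with median-of-ratios scaling (-0.27, adjusted p = 0.290) and with the covariate (-0.37, adjusted p = 0.107). amt-4 changed by -1.39 under ash-2 RNAi (adjusted p = 0.0158) and by -1.44 under hsf-1 RNAi (adjusted p = 0.0217). The call of amt-4 under ash-2 RNAi was lost without ash-2 replicate 1 (adjusted p = 0.0725), without the 4 libraries (-0.82, adjusted p = 0.149) and with the covariate (-0.47, adjusted p = 0.174), and that under hsf-1 RNAi was lost without the library labelled hsf-1 replicate 4 or without L4440 replicate 1, 2 or 4 (adjusted p up to 0.0578). The other one tested, rhr-2, was at -1.05 under ash-2 RNAi and 0.31 under hsf-1 RNAi and was not called (adjusted p = 0.0618 and 0.710), and amt-1, amt-2 and amt-3 were too low to be tested. Of 6 glutamate transporters tested, glt-4 alone was called, lower under ash-2 RNAi (-1.096, adjusted p = 0.00869). Its change no longer passed with those 4 libraries left out (-0.64, adjusted p = 0.0603), with the covariate (-0.45, adjusted p = 0.0745) or under quantile normalization (-0.39, adjusted p = 0.102). The 3 glutaminyl and glutamyl tRNA synthetases and the 2 other users of glutamate, gcs-1 and unc-25, had 0 calls by limma in either single treatment and 0 at an unadjusted p under 0.05.

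With both clones, 0 of the 38 were higher (3.68% of all genes) and 5 lower (5.40% of all genes) than in L4440 animals: rhr-1 (-1.50), amt-4 (-2.39), tatn-1 (-1.57), bcat-1 (-0.81) and gdh-1 (-0.68), the last named after its values were seen. Against ash-2 RNAi asns-1 was higher (1.04, adjusted p = 0.00482), and asns-2 (-1.22), rhr-1 (-0.89), tatn-1 (-0.83) and oatr-1 (-0.68, an ornithine aminotransferase named after its values were seen) were lower, where 12.0% of all genes were higher and 3.76% lower. Against hsf-1 RNAi rhr-1 was lower (-0.68, adjusted p = 0.0139), where 8.42% of all genes were lower. The interaction was called for 0 of the 38 by limma, and 3 had an unadjusted p under 0.05, beside 6.37% of all genes.

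**Figure D5:**
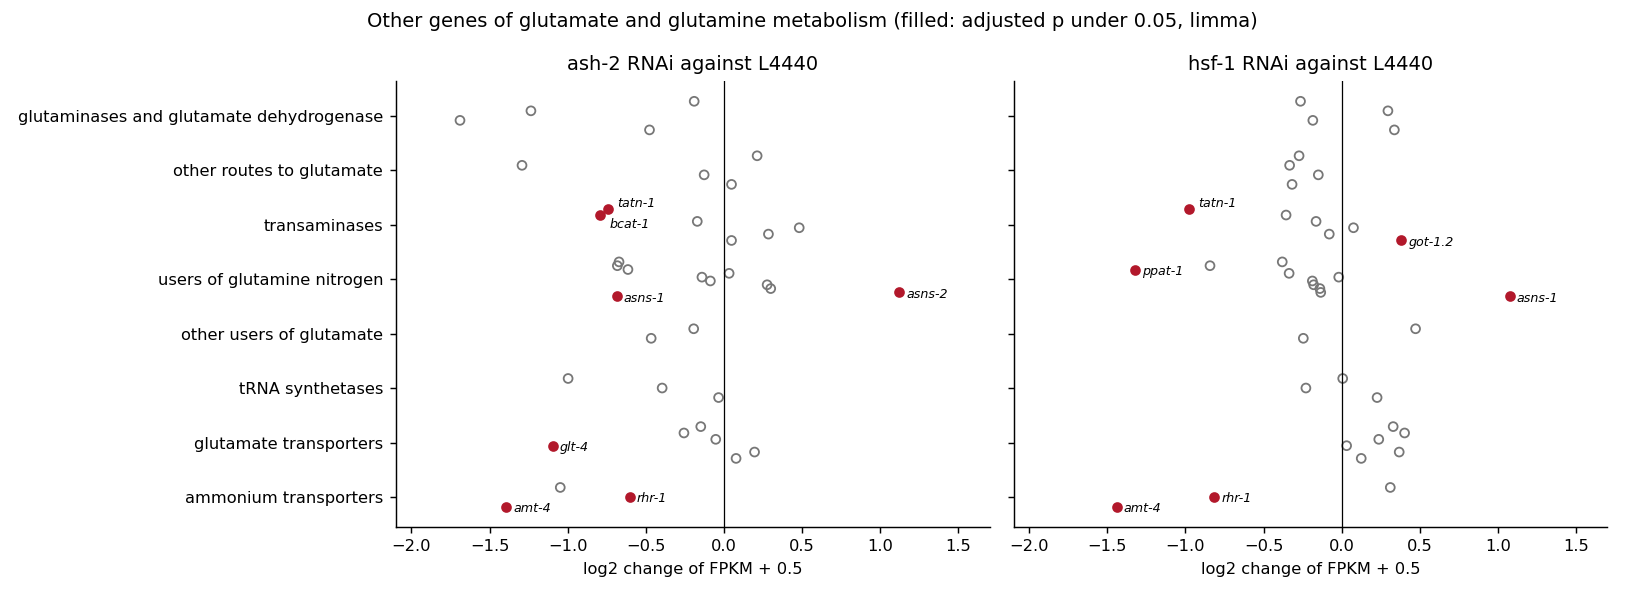
Log2 change of FPKM + 0.5 (x axes) of 38 genes of glutamate and glutamine metabolism, by role (y axis), under ash-2 RNAi (left) and hsf-1 RNAi (right) against L4440. Filled and named points had an adjusted p under 0.05, with 7 genes on the left and 6 on the right.

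The authors' deposited table of ash-2 RNAi against L4440 gave a ratio of 0.102 for gln-2 (q = 2.30e-29) and 0.476 for gln-1 (q = 6.22e-07) and marked both as significant. In the authors' deposited table gln-3 had a ratio of 1.33 there (q = 0.0229) and no mark. Under hsf-1 RNAi the authors' deposited table gave gln-2 a ratio of 1.50 (q = 0.0344) and no mark. For both clones against ash-2 RNAi the authors' deposited table gave gln-2 a ratio of 3.17 (q = 0.00263) and a mark. Over these 3 tables, the marks on the 5 genes fell on the same genes as the calls of limma, but the 2 criteria differ. A mark was absent at q = 0.0229 and 0.0344, so it did not rest on q under 0.05 alone. By q under 0.05, gln-3 under ash-2 RNAi and gln-2 under hsf-1 RNAi would pass too. The limma fit gave these an adjusted p of 0.0661 and 0.182.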

How the data were processed

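The 5 genes and all lists were chosen with earlier results of these data known. Per gene and library, 1 FPKM value was computed and deposited by the authors, from TruSeq stranded mRNA libraries per the labels. The authors also deposited a fold ratio, its log2, a p-value and a q-value per gene in 3 comparison tables, which were quoted only and never tested. cutadapt, HISAT2, StringTie, DESeq2 and WBcel235 are named per the submitters' processing notes, with no version or role given in the sources used here. A sheet of gene names was not used.

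All 17 libraries were mapped by title, and 0 columns of values were left unmapped. Genes that reached an FPKM of 1 in 4 or more libraries were put on the log2(FPKM + 0.5) scale, where changes of low genes look smaller, and fitted together with limma 3.58.1 (trend and robust settings) in R 4.3.3. The fit was tested on simulated data. Fragment counts were not used here, and fragment numbers were implied from the steps of low FPKM values, so depth is an estimate and no count test was run. Exact two-sided permutation tests, 126 arrangements for 4 against 5 libraries and 70 for 4 against 4, reach 0.00794 and 0.0286 at best and are unadjusted. Gene positions come from Ensembl and RefSeq annotation of WBcel235. Named genes were the members, the targets, the 3 genes most like each member (1 of them, for gln-6, is not reported here), and up to 6 called metabolism genes with the smallest adjusted p in each single treatment. Replicate numbers were not used as pairs in the fit over all libraries. Deviations of same-numbered libraries correlated at -0.69 to 0.69, and differently numbered libraries were not set beside them. Alternatives were other pseudocounts, filters, scalings, covariates, library subsets and tests. Protein and promoter sequences were not analysed here. Python 3.11.15, numpy 2.4.6 and pandas 2.3.3 made the summaries.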

Additional observations from a re-analysis of the deposited data

How the results depend on the processing

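The changes of gln-1 and gln-2 under ash-2 RNAi, and of gln-2 with both clones against hsf-1 RNAi and L4440, kept direction and call in all 28 alternatives. No called change turned its sign, but changes that were not called did, among them the following: gln-5 under ash-2 RNAi was 0.25 as reported and -0.17 with detected genes as a covariate, gln-6 with both clones against L4440 was -0.30 as reported and 0.05 without ash-2 + hsf-1 replicate 4, and ppat-1 under ash-2 RNAi was -0.61 as reported and 0.04 with the covariate. Counts of called glutamine synthetase genes moved as follows. Under ash-2 RNAi the 0 higher genes became 1 with only the groups compared, 2 by the exact permutation test (unadjusted), and 0 to 1 when 1 library was left out. Over all 13084 genes, the fit on only the groups compared called 3724 (71.4% lower), against 2570 as reported (78.8% lower). The exact test was not run over all genes for ash-2 RNAi. Under hsf-1 RNAi the 0 higher became 1 with detected genes as a covariate, 2 by the exact test and 0 to 1 with 1 library left out, and the 0 lower became 1 with only the groups compared, 1 by the exact test and 0 to 1 with 1 library left out. Over all genes the covariate gave 5181 calls there and only the groups compared 1713, against 1391 as reported. By the exact test 28.0% of all genes had an unadjusted p under 0.05, either direction. For both clones against ash-2 RNAi the 1 higher became 0 under quantile normalization and 1 to 2 with 1 library left out, and the 0 lower became 0 to 1. Over all genes quantile normalization called 2277 there (57.7% lower), against 2061 as reported (23.9% lower). Against hsf-1 RNAi the 0 higher became 0 to 1 with 1 library left out.

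Counts of metabolism genes, recomputed under alternatives chosen after seeing the data, moved more. Under ash-2 RNAi the 1 higher became 0 with no filter, 2 with median-of-ratios scaling, 5 with quantile normalization, 4 with the covariate, 0 without the 4 libraries of few detected genes, 3 with only the groups compared and 0 to 2 with 1 library left out. The 6 lower became 1 with the covariate, 2 without the 4 libraries, 10 with only the groups compared, and 2 to 10 with 1 library left out (2 without ash-2 replicate 1, 10 without hsf-1 replicate 4). Under hsf-1 RNAi the 2 higher became 1 with quantile normalization, 1 with plain eBayes, 4 without the 4 libraries and 1 to 3 with 1 library left out, and the 4 lower became 13 with the covariate. Calls over all 13084 genes moved too. Under hsf-1 RNAi 1391 were called as reported (27.4% of them lower) and 5181 with the covariate (64.5% lower). Under ash-2 RNAi 2570 were called as reported (78.8% lower), and 2951 with quantile normalization (44.7% lower). It was 3710 there with the covariate (38.0% lower), 2029 without the 4 libraries (74.7% lower) and 3724 with only the groups compared (71.4% lower). The causes were not tested. Median-of-ratios scaling gave a summed level of 1211 FPKM under ash-2 RNAi and 799 FPKM in L4440 animals, and quantile normalization gave gln-2 0.237% of the sum under ash-2 RNAi.

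Replicate numbers from the titles and from the descriptions differ for 2 libraries. Of same-numbered pairs, 14 of 24 and 14 of 22 correlated above 0.1. Differently numbered pairs were not set beside these, so whether the numbers mark shared batches was not tested. As a replicate block, either numbering gave 1 higher glutamine synthetase gene under ash-2 RNAi, gln-3 (adjusted p = 0.0485 and 0.0372). For metabolism genes the block by titles gave 1 higher under hsf-1 RNAi, and the block by descriptions gave 2 higher and 11 lower under ash-2 RNAi. Over all genes under ash-2 RNAi, 2570 were called without a block, 2614 with that of the titles and 4110 with that of the descriptions. The share of lower calls there was 78.8% as reported, 62.7% with median-of-ratios scaling, 44.7% with quantile normalization and 38.0% with detected genes as a covariate, where the median change of all genes was 0.26 in place of -0.32. At 16 to 44 implied fragments the gln-2 level under ash-2 RNAi is the value most limited by depth.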
